A study of Mus musculus with 6 samples.

Results

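The genes described here encode the nuclear pore complex, the nuclear envelope and the soluble factors that carry cargo through the pore, measured in mouse leukaemia cells with and without an Evi1 transgene. They are 39 genes chosen by name for their place in these structures, at a time when the Evi1 Tg minus WT differences of these arrays were already known, so those differences are given as a description and support nothing about the set. Of the 39 genes, 34 had a probe set that names that gene alone and were measured, out of 22180 genes in all. The probe sets of Nup85, Nup62 and Nupl1 name several genes, and no probe set used here names Nup35 or Tpr. The single comparison of the study sets 3 arrays of MLL-AF9 leukaemia that carries an Evi1 transgene (Evi1 Tg) against 3 arrays of MLL-AF9 leukaemia of wild-type origin (WT), both on the C57BL/6J background and untreated. MLL-AF9, a fusion oncogene that causes acute myeloid leukaemia, is thus shared by both groups. Each sample was 10000 leukaemia cells sorted for green fluorescence, and total RNA of the whole, unfractionated population was hybridised to 1 array. The sources used here give neither the promoter of the transgene nor the age of the mice, and do not say if replicate arrays stand for different mice. A p-value therefore measures the spread between these samples, which may be technical.

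The nuclear pore complex is a ring of many copies of a set of proteins, the nucleoporins, set in the nuclear envelope. Transmembrane nucleoporins anchor it, the Y complex and the inner ring build its frame, and nucleoporins rich in phenylalanine-glycine repeats fill the channel and bind transport receptors. Importins and exportins carry proteins through that channel in a direction set by the small GTPase Ran. In dividing animal cells the envelope, the lamina and the pores are taken apart in mitosis and rebuilt in the daughter nuclei, so cycling cells must make new pores.

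All arrays had a similar median intensity, between 51.6 and 55.4 over 34351 probe sets. WT 3 had the lowest median and the highest upper quartile, 153.1, against 143.4 to 150.6 on the other arrays. Pearson correlations across genes were 0.984 to 0.992 within Evi1 Tg, 0.978 to 0.988 within WT and 0.972 to 0.985 across the groups (genes are not independent replicates). Background was set at an intensity of 85.2, the 90th percentile of 51 genes listed as silent in blood cells, and 41.6% of all genes lay above it. The summed intensity of these 51 genes ran from 3089 on Evi1 Tg 3 to 8287 on WT 1, so not all of them were silent on every array. The gene of the transgene product, Mecom, gave no signal above background, averaging 38.6 ± 1.78 in Evi1 Tg and 37.0 ± 2.66 in WT (SD, n = 3 each), so this probe set does not check the labels. All 11 myeloid markers lay above background, among them Ptprc, Spi1 and Elane, while 0 of 4 B cell, 0 of 5 T cell, 0 of 2 erythroid and 1 of 7 stromal and endothelial markers did. That 1 was Pecam1, which myeloid cells also express. The summed intensity of the myeloid markers was 16582 to 19420 in Evi1 Tg and 13961 to 17390 in WT, of which Elane gave 7651 to 9509 in Evi1 Tg and 5720 to 7402 in WT, and the sum hides markers that differed in opposite directions. Mpo, the gene of the granule enzyme myeloperoxidase, had 1192, 863.0 and 525.3 in Evi1 Tg, against 92.7, 68.1 and 252.5 in WT (difference 2.80, SE 0.507, limma adjusted p = 0.139). Meis1 (0.85) and Elane (0.44) were also higher in Evi1 Tg with separate groups, while Csf3r (-0.55) and Ptprc (-0.39) were lower with separate groups. None of the 11 passed a limma adjusted p of 0.05. At an unadjusted limma p under 0.05 there were 3 higher and 2 lower, beside 4.5% and 5.8% of all genes. The part of these markers in the differences of the pore genes was not tested. Precision is limited by the few arrays, since the smallest p that an exact two-sided permutation test can reach with 3 against 3 is 0.1.

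Nuclear pore, envelope and transport genes had more signal in Evi1 Tg than in WT for 32 of 34 members, with a median difference of 0.36 on the log2 scale, a fold of 1.29. Over all 22180 genes 53.5% were higher in Evi1 Tg, and the median difference was 0.012. The largest differences were those of the lamina protein gene Lmnb1 (0.67), the pore anchor genes Pom121 (0.66) and Ndc1 (0.58), the Y complex gene Nup43 (0.59) and the chromatin-tethering gene Banf1 (0.57). Sec13 (-0.21) and Seh1l (-0.10), which encode Y complex subunits that also work in membrane traffic and nutrient sensing, were the 2 members with a difference below 0. Without Evi1 Tg 2 the difference of Sec13 was -0.07, and that of Seh1l was -0.29 without WT 2 and 0.12 without WT 3. In bulk RNA of this kind, fewer cells of a type and less RNA per cell cannot be told apart.

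**Figure D1:**
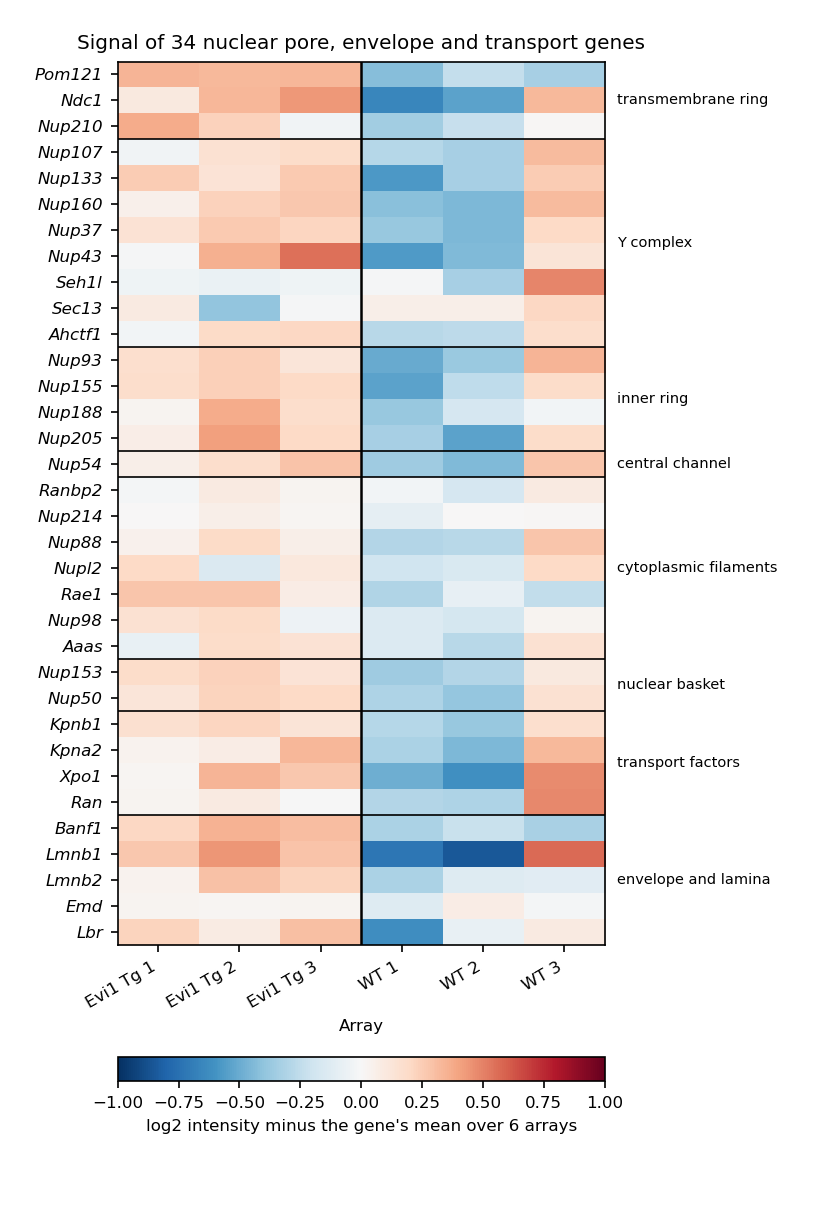
Each row is 1 of 34 measured genes in order of role and each column 1 array, with the Evi1 Tg arrays left of the WT arrays. Colour is the log2 intensity minus the gene's mean over the 6 arrays. Most rows are below their mean on WT 1 and WT 2, and near or above it on WT 3, while Pom121, Banf1 and Rae1 are below it on all 3 WT arrays.

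No member passed an adjusted p of 0.05 over all genes in limma, where 0.00902% of all genes were called higher and 0.104% lower in Evi1 Tg. At an unadjusted limma p under 0.05 there were 10 members higher (29.4%) and 0 lower, beside 4.5% and 5.8% of all genes. The arrays of the 2 groups did not overlap for 6 members (17.6%), all higher in Evi1 Tg, beside 7.08% of all genes higher and 7.47% lower. Since the members were chosen with this comparison known, nothing is read from these shares. The 6 members were Pom121, Nup188, Rae1, Nup153, Banf1 and Lmnb2. With quantile normalization the groups did not overlap for 12 members, all higher, beside 8.17% of all genes, and 5 of the 6 were among them. Without Evi1 Tg 1 the groups did not overlap for 14 members higher, beside 11.4% of all genes, and 1 lower (Sec13). Without WT 3 they did not overlap for 31 members, all higher, beside 17.7% of all genes. The count of members higher at an unadjusted limma p under 0.05 was 6 without Evi1 Tg 1, beside 3.14% of all genes, 4 without Evi1 Tg 2 (2.64%) and 8 without Evi1 Tg 3 (4.54%). It was 4 without WT 1 (3.12%), 5 without WT 2 (3.72%) and 28 without WT 3 (9.42%).

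**Figure D2:**
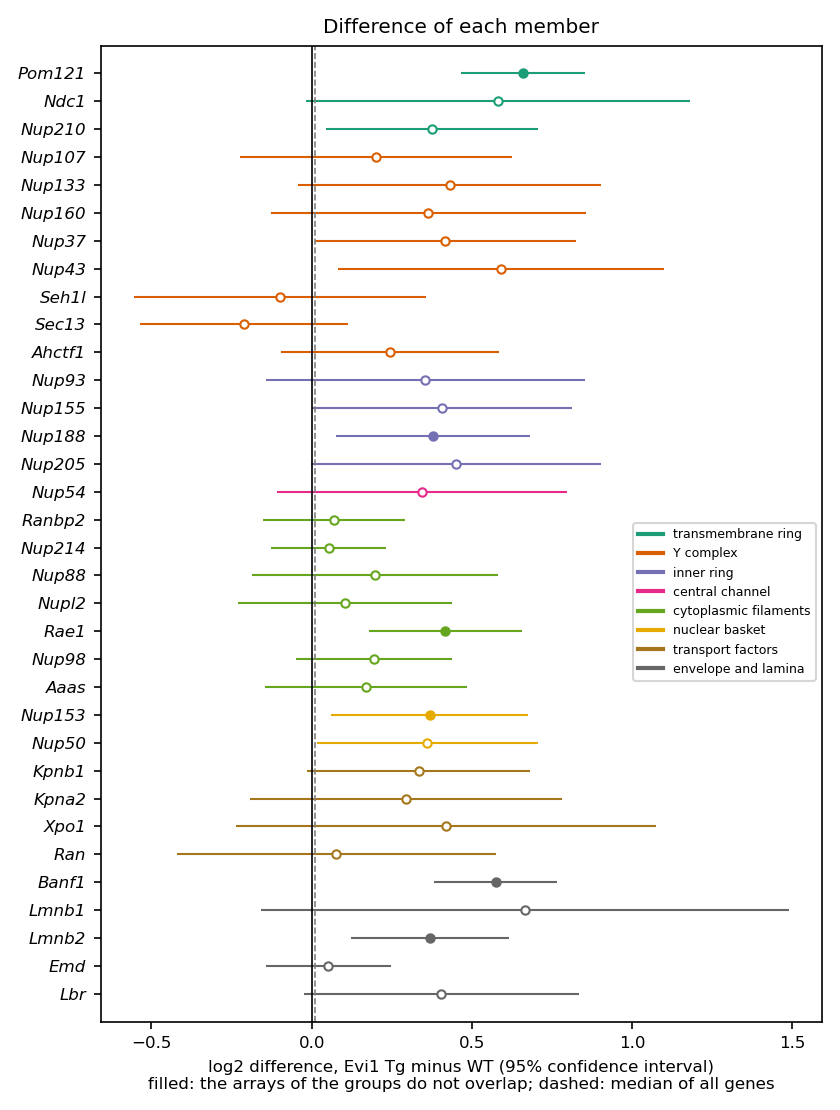
The log2 difference, Evi1 Tg minus WT, is plotted for 34 members with its 95% confidence interval from limma, coloured by role. Filled points mark the 6 members whose groups do not overlap, and the dashed line the median of all genes at 0.012. The intervals of Pom121 and Banf1 are narrow and clear of 0, and that of Lmnb1 is wide and spans it.

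The members had contrasting patterns by array, and the promoters of genes from each are shown so that they can be compared. Pom121, Rae1 and Banf1 had the smallest limma p of the members, with separate groups, while Ndc1 and Xpo1 had a WT 3 value among or above those of Evi1 Tg. The windows run 5′ to 3′ on the strand of the gene, from 250 bases before to 50 bases after its start, as RefSeq gives them for GRCm38.p6, and capitals mark the motif letters that were found.
Pom121, chr5:135394497-135394796, minus strand: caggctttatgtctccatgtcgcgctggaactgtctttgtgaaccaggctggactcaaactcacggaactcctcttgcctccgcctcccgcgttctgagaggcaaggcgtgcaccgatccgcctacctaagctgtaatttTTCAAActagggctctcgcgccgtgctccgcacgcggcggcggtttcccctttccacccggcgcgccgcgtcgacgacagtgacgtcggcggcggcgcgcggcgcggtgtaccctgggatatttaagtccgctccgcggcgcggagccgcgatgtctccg
Rae1, chr2:172999867-173000166, plus strand: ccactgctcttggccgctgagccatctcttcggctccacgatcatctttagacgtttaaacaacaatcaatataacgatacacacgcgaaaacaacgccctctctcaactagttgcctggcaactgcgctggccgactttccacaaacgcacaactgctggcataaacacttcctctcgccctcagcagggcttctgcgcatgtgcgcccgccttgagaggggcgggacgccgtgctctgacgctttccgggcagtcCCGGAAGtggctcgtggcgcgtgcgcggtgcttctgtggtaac
Banf1, chr19:5366827-5367126, minus strand: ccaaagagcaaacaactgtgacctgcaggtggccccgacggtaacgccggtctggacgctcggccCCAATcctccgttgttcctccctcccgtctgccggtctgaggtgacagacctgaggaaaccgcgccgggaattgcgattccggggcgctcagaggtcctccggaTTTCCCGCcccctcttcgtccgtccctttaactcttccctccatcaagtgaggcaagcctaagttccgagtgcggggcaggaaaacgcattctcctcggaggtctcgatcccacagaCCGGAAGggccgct
Ndc1, chr4:107367797-107368096, plus strand: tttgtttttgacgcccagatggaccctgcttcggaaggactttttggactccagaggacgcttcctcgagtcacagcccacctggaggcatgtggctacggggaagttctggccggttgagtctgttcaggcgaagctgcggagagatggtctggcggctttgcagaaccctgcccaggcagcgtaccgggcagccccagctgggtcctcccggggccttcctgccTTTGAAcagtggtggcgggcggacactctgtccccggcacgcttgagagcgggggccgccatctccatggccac
Xpo1, chr11:23255791-23256090, plus strand: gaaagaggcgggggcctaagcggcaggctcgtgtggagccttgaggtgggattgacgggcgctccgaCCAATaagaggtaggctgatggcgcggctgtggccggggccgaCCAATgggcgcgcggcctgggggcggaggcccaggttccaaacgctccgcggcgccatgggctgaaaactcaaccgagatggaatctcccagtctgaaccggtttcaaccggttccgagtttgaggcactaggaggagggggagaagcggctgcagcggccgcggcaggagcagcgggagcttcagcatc

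Motifs were searched on both strands as exact letters, with overlapping matches kept, in 39 member windows and in all 32851 windows of the RefSeq table. The member windows belong to 34 of the 39 listed genes, of which 31 were measured and Tpr, Nup62 and Nupl1 were not. No window was found for Nup35, Nup85 and the measured Nup43, Lmnb1 and Seh1l. The capitals are TTTGAA, the core of the cell cycle CHR element, in Ndc1 and on the other strand in Pom121, CCGGAAG, the core of ETS factor sites, in Rae1 and Banf1, TTTCCCGC, a form of the E2F site, in Banf1, and CCAAT, the box bound by NF-Y, in Xpo1 and Banf1. Of the member windows 46.2% held CCAAT, against 37.4% of all windows, and 23.1% held TTTGAA, against 17.9%. The ETS letters CCGGAAG were in 23.1% of member windows, against 8.86% of all windows. GCGCATGC, a core of NRF1 sites, was in 12.8%, against 2.71%, the E box CACGTG in 12.8%, against 7.15%, and TTTCCCGC in 5.13%, against 1.07%. The CHR variant TTCGAA (1.56% of all windows), the E2F variant TTTGGCGC (0.514%) and the EVI1 site letters GACAAGATA (0.119%) were in 0 member windows. The windows of all genes include those of noncoding genes, some genes have several windows, and a match is letters in a window and not a shown binding site. The overlapping windows of Nup37 count the same CHR, CCAAT and ETS letters again, and the NRF1 windows include those of the unmeasured Nup62 and Nupl1. The windows of Nup153 and Lmnb2, whose groups did not overlap, held none of these letters, and neither did those of Nup133, Nup160, Nup205 and Ahctf1, whose groups overlapped, nor a second RefSeq window each of Banf1 and Nup98.

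Pom121 and Ndc1 encode membrane-spanning nucleoporins that anchor the pore and are needed to assemble it. Pom121 had intensities of 1031, 1019 and 1028 in Evi1 Tg 1, 2 and 3, against 608.9, 691.8 and 648.9 in WT 1, 2 and 3. All Evi1 Tg arrays lay above all WT arrays and within a few percent of each other. The log2 difference was 0.66 with an SE of 0.0818 (3 arrays a group, limma adjusted p = 0.0571), a fold of 1.58 with a 95% interval from 1.38 to 1.81. It lay between 0.61 and 0.71 over the alternatives, where the limma adjusted p ran from 0.0302 to 0.307. Ndc1 had 968.3, 1139 and 1223 in Evi1 Tg, against 574.1, 622.4 and 1128 in WT. The WT 3 value lay inside the Evi1 Tg range, and the difference of 0.58 had an SE of 0.254 (limma adjusted p = 0.502). Nup210, a large transmembrane nucleoporin that differs in level between cell types, had 696.0, 633.9 and 525.2 in Evi1 Tg, against 422.9, 460.5 and 544.9 in WT, again with WT 3 inside the Evi1 Tg range (difference 0.38, SE 0.140). Thus the genes of the membrane anchors had the highest median of the roles, at 0.58, but in Pom121 alone of the 3 were the groups apart.

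**Figure D3:**
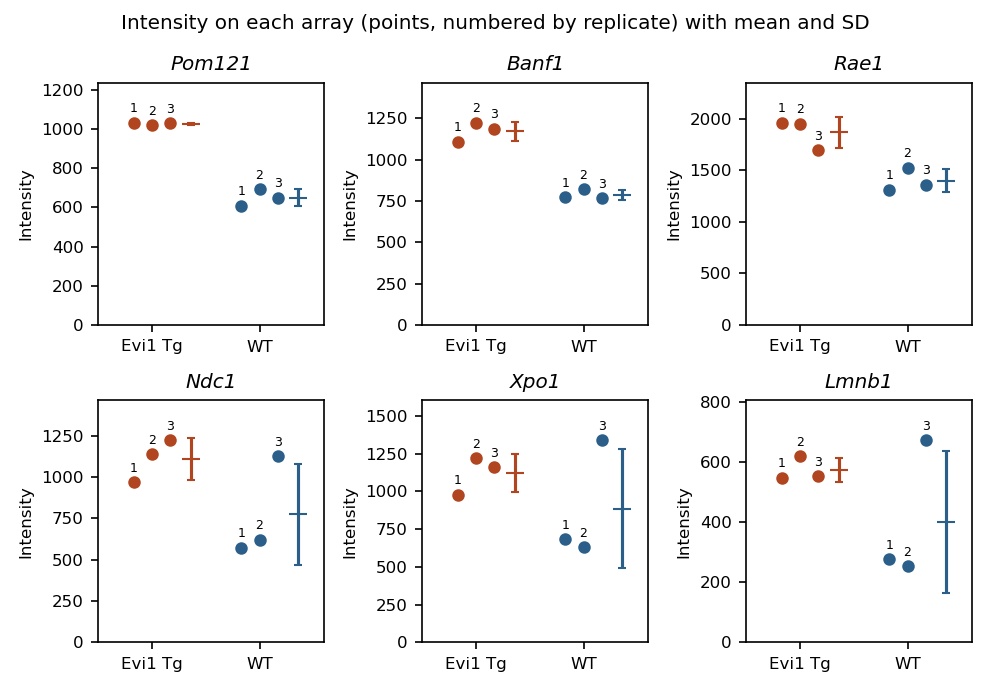
The intensity of 6 members on each array is plotted on a linear axis from 0, with Evi1 Tg left of WT, points numbered by replicate, and the mean and SD beside them. In Pom121, Banf1 and Rae1 all WT arrays lie below all Evi1 Tg arrays. In Ndc1, Xpo1 and Lmnb1 the third WT array lies among or above the Evi1 Tg arrays.

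The Y complex, the outer frame of the pore, was measured through 8 of its 9 listed genes, 6 of them higher in Evi1 Tg, and the median difference was 0.30. Nup43, one of its small beta-propeller subunits, had the largest difference, with intensities of 172.5, 222.3 and 254.7 in Evi1 Tg, against 117.4, 128.0 and 190.4 in WT (0.59, SE 0.216, limma adjusted p = 0.412). The WT 3 value lay between the Evi1 Tg values, so the groups overlapped. Nup133 (0.43), Nup37 (0.42), Nup160 (0.36), Ahctf1 (0.24), which encodes ELYS, the factor that seeds pores on chromatin, and Nup107 (0.20) also had WT 1 and WT 2 below every Evi1 Tg array. WT 3 lay above every Evi1 Tg array in Nup160 and Nup107. Seh1l departed from these genes, with WT 1 and WT 3 above and WT 2 below every Evi1 Tg array. It had 785.2, 771.8 and 785.4 in Evi1 Tg, against 801.8, 643.3 and 1135 in WT. Sec13, which is also a coat protein of vesicles that leave the endoplasmic reticulum, had 425.9, 303.7 and 396.0 in Evi1 Tg, against 415.5, 416.6 and 460.4 in WT (difference -0.21, SE 0.137, limma adjusted p = 0.684). Its groups overlapped, and no WT array of Sec13 lay below the Evi1 Tg arrays.

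The inner ring, which lines the wall of the channel, had differences of 0.35 to 0.45 in its 4 measured genes. Nup205 (0.45), Nup155 (0.41) and Nup93 (0.35) each had WT 1 and WT 2 below all Evi1 Tg arrays and WT 3 within their range (Nup205 and Nup155) or above it (Nup93). Nup155, for example, had 1067, 1117 and 1089 in Evi1 Tg, against 654.5, 793.2 and 1073 in WT. Nup188 separated the groups, with 45.2, 57.2 and 49.95 in Evi1 Tg, against 34.1, 39.4 and 43.6 in WT (difference 0.38, SE 0.128, limma adjusted p = 0.367). It was the 1 member whose mean signal lay below background, so its separation is one of weak signal, and it was lost when the arrays were centred on their medians. Nup54, a repeat protein of the central channel and the only one of its trio measured here, had 356.0, 385.7 and 416.0 in Evi1 Tg, against 266.8, 251.9 and 415.0 in WT (difference 0.34, SE 0.192, limma adjusted p = 0.613), with WT 3 at the top of the Evi1 Tg range.

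The genes listed with the cytoplasmic filaments, not all of which encode proteins found on that side alone, had the smallest median of the roles. It was 0.17 over 7 genes, and all 7 differences were above 0. Ranbp2 (0.070) and Nup214 (0.053), the large proteins of the cytoplasmic filaments, hardly differed between the groups, with 95% intervals of -0.15 to 0.29 and -0.13 to 0.23. Nup98 (0.19), Nup88 (0.20), Aaas (0.17) and Nupl2 (0.10) had small differences as well. Rae1, an mRNA export factor that binds Nup98 and also acts at the mitotic spindle, stood apart from them. It had intensities of 1962, 1955 and 1699 in Evi1 Tg, against 1314, 1527 and 1363 in WT, and the groups did not overlap (difference 0.42, SE 0.101, limma adjusted p = 0.224). Its difference lay between 0.37 and 0.49 over the alternatives. In all 7 genes WT 1 and WT 2 lay below every Evi1 Tg array. WT 3 lay below them in Rae1 alone, within their range in 5 genes and above it in 1, Nup88.

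On the nuclear side, the basket genes Nup153 and Nup50 had differences of 0.37 and 0.36. Nup153, which docks import complexes and the basket itself, had 1138, 1173 and 1098 in Evi1 Tg, against 782.0, 813.8 and 1071 in WT (SE 0.130, limma adjusted p = 0.393). The groups did not overlap, but WT 3 lay just below the lowest Evi1 Tg array and well above the other WT arrays. Nup50, a cofactor of importin recycling, had WT 3 (724.4) between the Evi1 Tg arrays (710.8 to 760.5) and WT 1 and WT 2 at 527.1 and 499.8.

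Among the transport factors, Xpo1, the exportin that recognises leucine-rich export signals, had 979.1, 1219 and 1161 in Evi1 Tg, against 685.4, 631.0 and 1338 in WT. WT 3 was the highest of the 6 arrays, and the difference of 0.42 had an SE of 0.278 (limma adjusted p = 0.693). Kpnb1, importin beta, the main import receptor, had the smallest p of the transport factors, with 2430, 2527 and 2389 in Evi1 Tg, against 1787, 1672 and 2451 in WT (difference 0.33, SE 0.148, limma adjusted p = 0.508). The 2 dimmer probe sets of Kpnb1 gave differences of 0.43 and 0.35, so all 3 ran the same way. Kpna2, an importin alpha adaptor that is abundant in cycling cells, had a difference of 0.29. Ran itself had 401.8, 419.9 and 392.4 in Evi1 Tg, against 322.0, 317.8 and 550.9 in WT. Its difference was 0.077, with WT 1 and WT 2 below and WT 3 above every Evi1 Tg array. The WT arrays were thus placed around the Evi1 Tg arrays as in Xpo1, although the group difference of Ran was close to 0.

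The envelope and lamina genes held both patterns. Banf1, which encodes the barrier-to-autointegration factor that links chromatin to the envelope when nuclei reform, had 1108, 1222 and 1186 in Evi1 Tg, against 771.7, 822.7 and 767.5 in WT. The groups were far apart: the difference was 0.57 (SE 0.0816, limma adjusted p = 0.0772), a fold of 1.49 with a 95% interval from 1.30 to 1.70, and a range of 0.54 to 0.61 over the alternatives. Lmnb1, the gene of lamin B1, had 549.7, 620.1 and 554.3 in Evi1 Tg, against 276.7, 253.6 and 673.5 in WT. Its difference was the largest of all members at 0.67, but its SE was 0.349 (limma adjusted p = 0.590), since WT 3 was the highest array and WT 1 and WT 2 were the lowest. Lmnb2, the other B-type lamin gene, did not share that spread, with 105.3, 125.6 and 119.7 in Evi1 Tg, against 82.3, 94.0 and 94.9 in WT (difference 0.37, SE 0.104, limma adjusted p = 0.276). Its WT 1 value lay below the background of 85.2 and the other WT values little above it, so this separation is also one of weak signal. Lbr, the lamin B receptor and a sterol reductase, had 3490, 3159 and 3686 in Evi1 Tg, against 1948, 2834 and 3172 in WT, with an overlap between Evi1 Tg 2 and WT 3 (difference 0.40, SE 0.182). Emd, which encodes emerin, an inner membrane partner of Banf1's product, had a difference of 0.052 with a 95% interval of -0.14 to 0.25.

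The position of single WT arrays set most of these overlaps. WT 1 lay below all 3 Evi1 Tg arrays for 32 of 34 members (94.1%) and WT 2 for 32 of 34, against 41.0% and 38.8% of the 9223 genes above background. WT 3 lay below them for 7 members (20.6%), within their range for 18 and above them for 9, against 21.9%, 34.8% and 43.3% of the genes above background. The 7 were the 6 members with separate groups and Emd. On WT 3 the members thus lay below the Evi1 Tg arrays about as often as other genes with signal did. The range over the arrays of a group had a median of 0.21 on the log2 scale in Evi1 Tg and 0.56 in WT, and was wider in WT for 29 of 34 members (85.3%), against 67.7% of the genes above background. Measured from the Evi1 Tg mean, WT 3 ran from -0.66 in Pom121 and -0.61 in Banf1 to 0.45 in Ran and 0.54 in Seh1l. Without WT 3, 14 of 34 members (41.2%) were higher in Evi1 Tg at a limma adjusted p under 0.05, beside 1.73% of all genes, and the groups did not overlap for 31 members, beside 17.7%. The 14 were Pom121, Ndc1, Nup133, Nup160, Nup37, Nup93, Nup155, Nup54, Nup153, Nup50, Kpnb1, Xpo1, Banf1 and Lmnb1. Leaving out any of the other 5 arrays left 0 members past that threshold. The labels give no ground to set WT 3 aside, and it stays in every value that is not given as one without it or as a range over the alternatives.

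**Figure D4:**
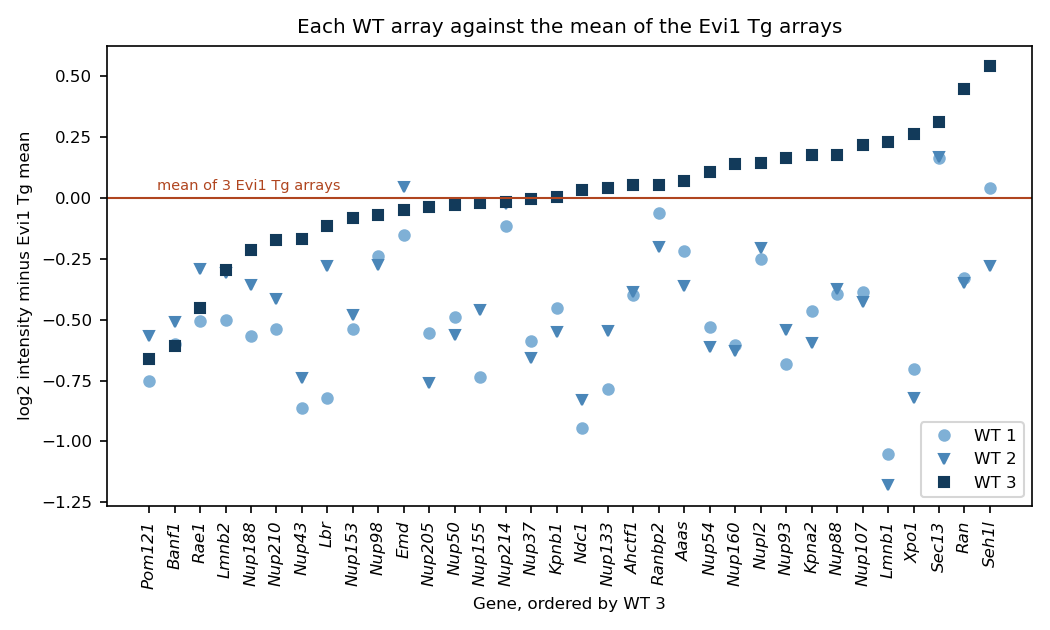
For each member the log2 intensity of each WT array minus the mean of the 3 Evi1 Tg arrays is plotted, with genes ordered by WT 3. WT 1 and WT 2 lie below the line of the Evi1 Tg mean for nearly all members, while WT 3 runs from -0.66 in Pom121 to 0.54 in Seh1l and crosses the line in the middle of the list.

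Genes of cell division had a similar placing of the WT arrays. All 31 measured genes of a list of mitotic and replication genes lay above background and were higher in Evi1 Tg, with a median difference of 0.60. At an unadjusted limma p under 0.05 there were 15, beside 4.5% of all genes higher, while 0 passed over all genes. Their median deviation from each gene's mean over the 6 arrays was 0.24, 0.28 and 0.37 in Evi1 Tg 1, 2 and 3, against -0.53, -0.69 and 0.33 in WT 1, 2 and 3. For the pore, envelope and transport genes it was 0.079, 0.22 and 0.19 in Evi1 Tg, against -0.32, -0.29 and 0.18 in WT. In both lists WT 1 and WT 2 were low and WT 3 stood inside the Evi1 Tg range. Over all 9223 genes above background the median deviation was -0.0038, -0.014 and 0.033 in Evi1 Tg, against -0.050, -0.030 and 0.089 in WT. WT 3 was thus the highest array for genes with signal in general, by a small amount, which it was in neither of the 2 lists. The summed intensity of the cell division genes was 30426 to 33248 in Evi1 Tg and 16504 to 32755 in WT, and their part in the differences of the pore genes was not tested. Cdc20, the activator of the anaphase-promoting complex, had 623.4, 557.6 and 575.2 in Evi1 Tg, against 324.5, 285.5 and 476.9 in WT (difference 0.73). Kif23, a kinesin of cytokinesis, had a difference of 0.88. Both, named for the smallest p of the list, had WT 3 below every Evi1 Tg array, as did 4 of the 31 genes, while WT 3 lay within the Evi1 Tg range for 22 and above it for 5.

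**Figure D5:**
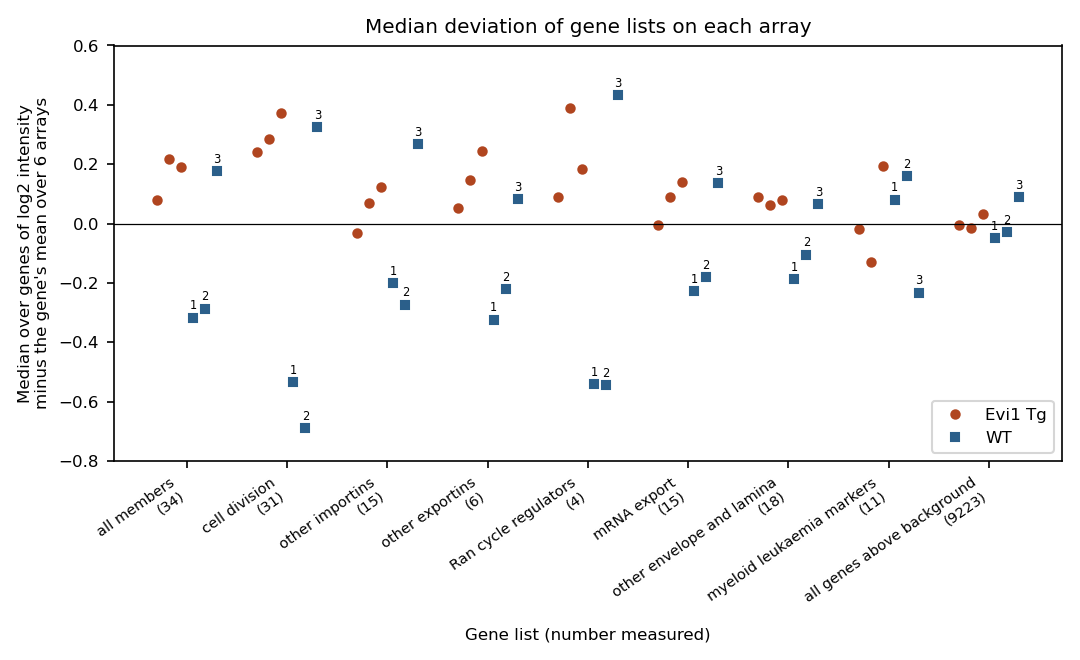
Each point is the median over the genes of a list of the log2 intensity minus the gene's mean over 6 arrays, on 1 array, with Evi1 Tg left of WT and the WT arrays numbered. In the pore, cell division and transport lists WT 1 and WT 2 are lowest and WT 3 lies at the level of the Evi1 Tg arrays or above it, whereas the myeloid markers are lowest on WT 3.

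Other genes of nuclear transport, taken from lists that do not overlap the members, had smaller median differences in 4 of 5 lists, and 0 passed a limma adjusted p of 0.05. At an unadjusted p under 0.05 limma called 2 exportin, 2 mRNA export and 1 envelope gene higher and 1 envelope gene lower, and 0 importin or Ran cycle genes. Over all genes 4.5% were called higher and 5.8% lower at that threshold. Of 15 other importin genes 12 were higher in Evi1 Tg, and their median difference was 0.098. The 2 with the smallest p were Ipo9 (0.36, SE 0.159), an importer of histones, and Ipo13 (-0.20, SE 0.0894), whose arrays did not overlap and lay lower in Evi1 Tg. Of 6 other exportin genes 4 were above 0, with a median of 0.33. Xpo4, a carrier of Smad3 and eIF5A, had 762.8, 967.3 and 902.3 in Evi1 Tg, against 462.1, 562.5 and 726.9 in WT (difference 0.61, SE 0.177, limma adjusted p = 0.299). Xpo5, which exports microRNA precursors, had a difference of 0.37 (SE 0.151), and in both genes the groups did not overlap. All 4 measured regulators of the Ran cycle were above 0, with a median of 0.49. In all 4, WT 1 and WT 2 lay below every Evi1 Tg array, while WT 3 lay within their range for 2 and above it for 2. Rcc1, the nucleotide exchange factor of Ran, had 278.5, 345.1 and 324.5 in Evi1 Tg, against 175.8, 150.9 and 359.5 in WT (difference 0.57). In Rangap1, the GTPase activator of Ran (0.52), WT 3 was above every Evi1 Tg array as well.

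Of 15 genes of mRNA export 14 were higher in Evi1 Tg, and their median difference was 0.15. Gle1, which drives the last step of export at the cytoplasmic filaments, had 688.0, 749.0 and 657.3 in Evi1 Tg, against 556.1, 563.2 and 636.1 in WT (difference 0.26, SE 0.0947), and Thoc3, a subunit of the THO complex, had a difference of 0.30 (SE 0.123). In both the groups were separate by a small margin. The 18 other envelope and lamina genes were mixed, with 12 above 0 and a median of 0.082. Syne1, the gene of the giant envelope protein nesprin-1, was far lower in Evi1 Tg, with 173.2, 117.9 and 342.3 in Evi1 Tg, against 909.2, 881.6 and 530.0 in WT. Its groups did not overlap, and the log2 difference was -1.98 (SE 0.395, limma adjusted p = 0.171). Its relative Syne3, nesprin-3, ran the other way, with 250.7, 211.3 and 190.8 in Evi1 Tg, against 112.3, 155.2 and 148.9 in WT (difference 0.65, SE 0.157, limma adjusted p = 0.224). Nesprins join the nucleus to the cytoskeleton. Of all envelope genes listed, Syne1 had the lowest difference and Syne3 the highest after Lmnb1 (0.67).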

How the data were processed

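Per the labels' protocols, 10000 sorted cells gave each RNA sample, from which biotin-labelled cDNA was made (GeneChip WT PLUS reagents). The authors deposited 1 intensity per probe set and array, linear as judged from the range of 17.8 to 14719. The sources used here do not state the background correction, normalization or summarisation, and normalization between arrays can hide a shift shared by most genes. Of 34351 probe sets, 23521 name 1 gene, 1814 several and 9016 none. For each of 22180 genes the probe set with the highest mean over the arrays was used, and log2 values were taken with no pseudocount or filter. The fit of Evi1 Tg against WT used limma 3.58.1 (lmFit, eBayes) under R 4.3.3. Its p-values were adjusted by the Benjamini-Hochberg method across the 22180 genes, and 0.05 was the threshold. Figures were drawn with matplotlib 3.10.9.

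The members and lists were chosen with earlier results of these data known. Given in full were members with separate groups and, per role, the smallest p in each direction. Of each list of other transport, envelope and cell division genes the 2 genes with the smallest p were named. The marker genes named, and all members of the myeloid list with separate groups, were chosen after their values were seen. Ndc1, Xpo1, Lmnb1 and further members with values by array were chosen after their values were seen. On simulated data for this comparison over 22180 genes, the fit found 63% of the genes given a 2-fold change, 91% at 4-fold, and wrongly called 10 others. The simulated noise was drawn for each gene alone, with no shift shared by many genes on an array, and only genes above background were changed. With a median fold of 1.29 in the members, these rates do not give the power for them. The alternatives left out each array or the dim genes, changed the scaling (quantile normalization or median centring), the offset (log2(value + 16)), the variance model (trend and robust) or the probe set (all averaged, or the dimmer one of a member), or added a replicate block.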

Additional observations from a re-analysis of the deposited data

How the results depend on the processing

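Over 14 alternatives 31 to 33 members were higher in Evi1 Tg, and the median member difference stayed between 0.25 and 0.51. Each of the 10 members given in full kept its direction in each alternative run for it. Pom121, Banf1, Nup153, Nup54 and Kpnb1 passed over all genes in 1 alternative each, the one without WT 3. Over all genes, limma called 2 higher and 23 lower. There were 6 higher with dim genes left out and 6 with trend and robust settings, while log2(value + 16) gave 0 higher and 9 lower. Leaving out 1 array gave 0 to 383 higher and 2 to 173 lower. For the members, leaving out 1 array gave 4 to 28 at an unadjusted p under 0.05, 0 to 14 past the adjusted threshold and 6 to 31 with separate groups, where fewer arrays also make a separation easier. The shares of all genes higher in Evi1 Tg by these rules were 2.64% to 9.42%, 0% to 1.73% and 10.1% to 17.7%. Quantile normalization gave 12 members with separate groups, against 6, all higher, beside 8.17% and 7.08% of all genes. With the replicate number as a block, 0 genes were called higher and 9 lower over all genes, with 0 members called. The labels do not say if the numbers pair the arrays. Deviations of arrays with the same number correlated at 0.189, -0.185 and 0.061, the first being the highest of all pairs. Evi1 Tg 2 correlated best with WT 3 (0.117). With 3 arrays a group these correlations cannot decide the question. Weak signal limits Nup188 most, which lay below background and dropped out with the dim genes.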
